A study of Mus musculus with 8 samples.

Results

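Motile cilium and axoneme genes encode the moving parts of beating cilia, together with the factors that switch these parts on. A list of 52 such genes was followed in mouse motor neuron cultures, across day and genotype. Members were found by symbol, through the RefSeq accession that each array probe carries. Of the 52 genes, 46 had a probe and 37 were measured, among 24644 genes tested on the arrays, of which 15048 carried a symbol. The list was chosen with earlier day and genotype results of these same arrays in view. Changes between days are therefore given as a description of the members, and no p-value is printed for them. A call between days still rests on a p-value from these same arrays, and nothing is supported by the number of calls.

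The cultures were differentiated from mouse embryonic stem cells of male origin toward spinal motor neurons, and the titles name an Hb9GFP line for both genotypes. Retinoic acid and Shh were given from day 2 to day 5, dissociation of the embryoid bodies followed on day 5, and GDNF followed until sampling. The 4 groups were Litchi knockout cells and control cells, each on day 9 and on day 7. Every group had 2 arrays, which makes 8 arrays in all, each hybridised with RNA from 1 bulk culture sample. From the labels it is not known if replicates are different cultures, or if the knockout line is a single clone. The p-values below therefore rest on the spread among these samples alone, and that spread may be technical. No symbol or synonym for Litchi was found among the probe names, so the targeted gene was not checked.

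An axoneme is a ring of microtubule doublets around a central pair. Dynein arms walk along the neighbouring doublet, radial spokes and the central pair time their strokes, and the nexin-dynein regulatory complex turns sliding into bending. Dynein arms are assembled in the cytoplasm by dedicated factors before transport into the cilium. FOXJ1, a forkhead factor, switches on much of this programme, and RFX factors act beside it by binding a promoter element called the X-box. In the embryonic neural tube, Foxj1 is known in the floor plate, the ventral midline cells that secrete Shh. Most other cells carry a primary cilium, which lacks the motility parts.

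The X-box is shown first, because it is a feature of these genes that the choice of members did not use. It was searched on both strands as GTNNCC, then 0 to 3 bases, then NGNAAC, in promoters of 300 bases (250 before and 50 after the transcription start) from RefSeq on GRCm38.p6. A promoter was given for 42 of the 52 genes, and 15 of these (35.7%) held an X-box, against 1606 of 27025 genes (5.94%) in the whole promoter table. Among the 31 measured members with a promoter, 11 held one. Their stretches follow in the direction of transcription, 5′ to 3′, with the X-box nearest to the start in capitals and 7 bases on each side, and with the strand of the gene.
Cfap44, chr16:44394765-44394792, plus strand: gagggacGTTGCTATGGCAACcgcagta
Enkur, chr2:21205357-21205384, minus strand: agcaactGTTTCCTTAGCAACcacgtgg
Spef2, chr15:9748839-9748867, minus strand: gcaactgGTTGCCCTGGGCGACgggaaga
Zmynd10, chr9:107547297-107547324, plus strand: ctccctcGTTTCCATGGCGACgacgact
Dnaic1, chr4:41569768-41569794, plus strand: cctgtcgGTTGCTGGGTAACcgcgtca
Dnaic2, chr11:114727379-114727405, plus strand: ggccaggGTTGCTAGGCAACtggtaaa
Hydin, chr8:110266949-110266976, plus strand: ctctgcgGTTGCTGTGGCAACagatggt
Pifo, chr3:106001497-106001524, minus strand: cggttccGTTCCCTTGGCAACgtagtac
Rfx2, chr17:56831103-56831131, minus strand: ggtaaccGTTGCCGGGCGCAACgccccgc
Tekt2, chr4:126325698-126325724, minus strand: gggggcgGTTGCTCGGCAACcagagcc
Tekt4, chr17:25471583-25471610, plus strand: atacaatGTTCCTTAGGCAACcaggaac

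The first 4 of these genes were called higher on day 9 in at least 1 genotype, and the other 7 were called in neither. The element was thus held by 4 of 16 called members and by 7 of 15 uncalled ones. Its centre lay between position -108.5 at Rfx2 and position 15.5 at Spef2, counted from the transcription start. The shorter element GTTGCC, which can overlap the X-box, was in 19 of 42 member promoters (45.2%), against 14.1% of all genes. The forkhead motif TGTTTAC was in 3 of 42 (7.14%), against 4.05% of all genes. Of genes outside the list, the X-box was in 25 of 56 promoters of other motile cilium genes (44.6%) and in 7 of 34 promoters of primary cilium and intraflagellar transport genes (20.6%). These matches are descriptions of letters in a window and say nothing of binding.

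Expression is given as the log2 processed signal of the probe minus the 75th percentile of its array, so that 0 is the level of a fairly bright spot, and 1 unit is a change of 2-fold. Levels of different probes are not set against each other. A probe was kept when the scanner marked it well above background on each array of a group, for 1 group or more. Throughout, above background stands for this mark, and a probe without the mark need not lie below background. Of the members, 6 matched no probe: Dnah3, Dnah12, Ccdc40, Ccdc114, Cfap54 and Armc4. Another 9 had a probe that did not pass: Dnah5, Dnah9, Dnaaf1, Spag6, Spag16, Spag17, Drc7, Cfap43 and Ak7. Of these 9, Dnah9, Spag17 and Drc7 were above background on 0 arrays. Among the 37 measured members, 26 were well above background on all 8 arrays. A further 9 passed through a day 9 group alone: Dnah1, Dnah6, Dnali1, Lrrc6, Zmynd10, Dnajb13, Ccdc39, Cfap44 and Vwa3a. The filter favoured a rise on day 9 for those 9, without fixing one in each genotype, as Dnah6 in control cells shows below. No count that includes them, over all members or by role, is a measure of how often such genes change.

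All 8 arrays lay on 1 slide with 1 scan. The share of spots well above background was 55.9% to 67.9% per array, and the 75th percentile ran from 649 to 1691 intensity units. In each group the array of replicate 1 was the brighter one. A gene was called when its adjusted p in limma, corrected by Benjamini-Hochberg over all 24644 genes, was under 0.05.

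In knockout cells, 18 of the 37 measured members were called higher on day 9 than on day 7 and 0 were called lower, where 4.14% of all genes tested were called higher. In control cells, 15 were called higher and 0 lower, where 4.10% of all genes tested were called higher. The 9 members that passed through a day 9 group alone gave 7 of these calls in knockout cells and 5 in control cells. They are also among the members whose arrays are compared for overlap below. The median change of the members was 1.65 in knockout cells and 1.31 in control cells, where the medians of all genes tested were -0.12 and -0.12. Over the 26 members well above background on every array, 10 were called higher in knockout cells and 9 in control cells, with medians of 1.09 and 0.79. Both comparisons called 14 members, among them Dnah1, Dnali1, Zmynd10 and Ccdc39, which had passed through a day 9 group alone. No overlap over all genes tested is given beside this count, so it is no measure of how far the genotypes agree. In knockout cells both day 9 arrays lay above both day 7 arrays for 29 members, against 22.0% of all genes. In control cells this held for 26 members, against 18.9% of all genes. The count of 18 in knockout cells fell to 6 when the first day 9 array of that genotype was left out, and to 11 or 9 when its first or its second day 7 array was. The count of 15 in control cells fell to 0 when the second day 7 array of that genotype was left out, to 6 with its first day 7 array dropped and to 3 with its second day 9 array dropped. In bulk cultures, fewer or more cells of a type and less or more RNA per cell cannot be told apart.

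**Figure D1:**
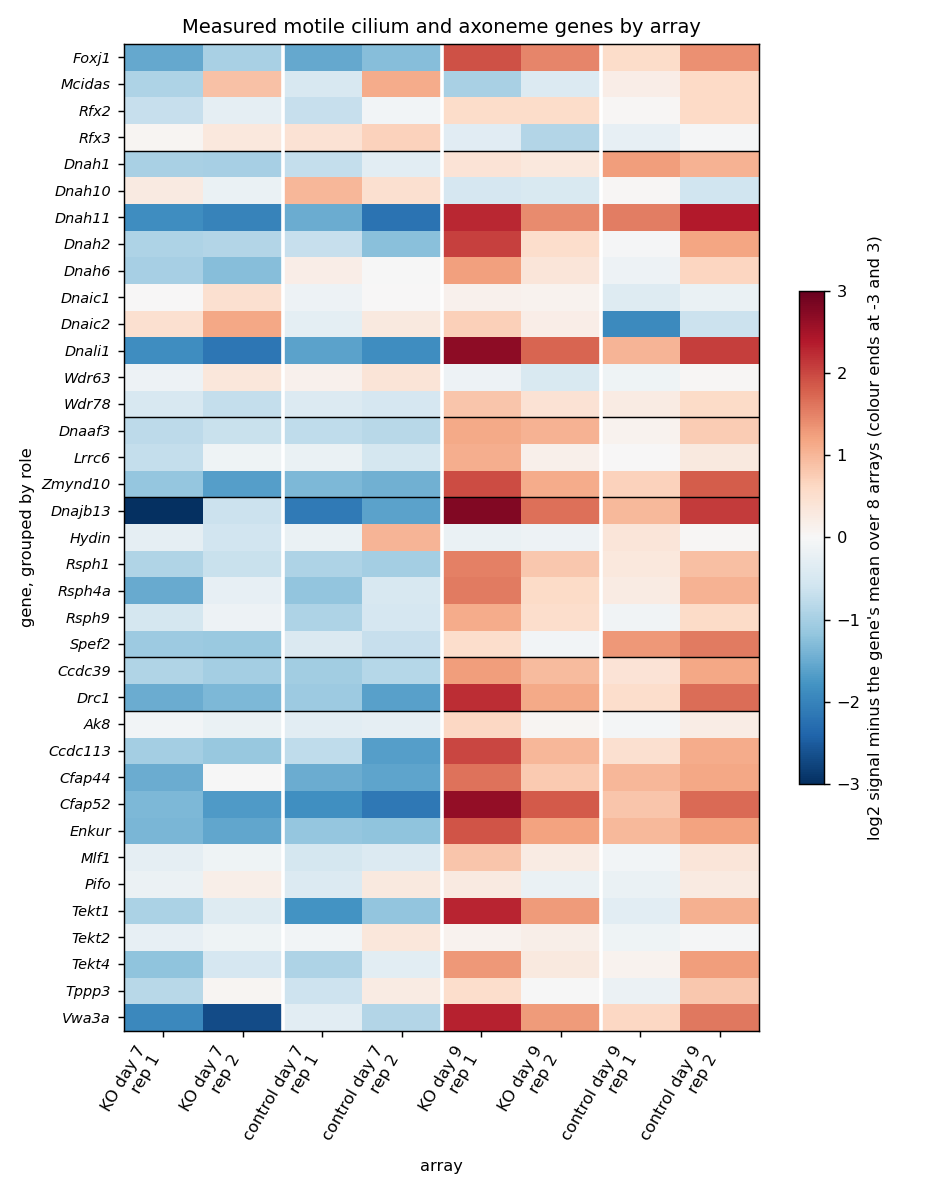
Colour gives the log2 signal of each of the 37 measured genes (rows, grouped by role) on each of the 8 arrays (columns), minus that gene's mean over the arrays. The 4 day 9 columns are red for most genes and the 4 day 7 columns blue. Within day 9, replicate 1 is the redder array in knockout cells and replicate 2 in control cells.

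The transcription regulators did not move as a group. Foxj1, the forkhead activator of motile cilium genes, was at 2.96 and 2.50 in knockout cells on day 9, against -0.48 and 0.08 on day 7. Control cells had it at 1.60 and 2.42 on day 9, against -0.49 and -0.23 on day 7. All 4 day 9 arrays were above all 4 day 7 arrays, and the changes were 2.93 ± 0.33 in knockout cells and 2.37 ± 0.33 in control cells (SE of the fit, 2 arrays per group, as for each change below).

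Mcidas, the coiled-coil protein that starts multiciliation, was at -0.06 and 0.49 in knockout cells on day 9, against -0.03 and 1.78 on day 7. Control cells had it at 1.11 and 1.50 on day 9, against 0.43 and 2.03 on day 7. The days overlapped in both genotypes, and on day 7 its replicates lay further apart than its days. Its changes were -0.66 ± 0.70 in knockout cells and 0.07 ± 0.70 in control cells, and neither was called.

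Rfx2, an X-box binding factor, was at -1.52 and -1.52 in knockout cells on day 9, against -2.77 and -2.34 on day 7. In control cells it was at -2.03 and -1.48 on day 9, against -2.77 and -2.15 on day 7. Both day 9 arrays lay above both day 7 arrays in each genotype, but neither change, 1.03 ± 0.28 and 0.70 ± 0.28, was called. Rfx3, of the same factor family, gave probes that disagreed. Its brightest probe was at -2.13 and -2.67 in knockout cells on day 9, against -1.73 and -1.47 on day 7, and its change was -0.80 ± 0.22 there and -0.69 ± 0.22 in control cells. The other kept Rfx3 probes had changes of 0.40 and 0.80 in knockout cells and 0.28 and 0.55 in control cells. No direction is given for Rfx3 for this reason.

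The dynein arm chains split into a part that was much higher on day 9 and a part that was not. Of 10 measured chains, 5 were called higher in knockout cells and 4 in control cells, with median changes of 1.29 and 0.52. Of these chains, Dnah1, Dnah6 and Dnali1 had passed the filter through day 9 alone. Dnali1, the light intermediate chain of inner arms, was at -0.39 and -1.33 in knockout cells on day 9, against -4.94 and -5.24 on day 7. In control cells it was at -2.06 and -1.01 on day 9, against -4.68 and -4.93 on day 7. The days were wide apart in both genotypes, with changes of 4.23 ± 0.42 in knockout cells and 3.27 ± 0.42 in control cells, although only 1 of the 2 day 7 arrays of each genotype was above background.

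Dnah11, a heavy chain of outer arms, was at -0.01 and -0.87 in knockout cells on day 9, against -4.13 and -4.29 on day 7. Control cells had Dnah11 at -0.75 and 0.09 on day 9, against -3.77 and -4.49 on day 7. The days did not overlap, and its changes were 3.77 ± 0.41 in knockout cells and 3.80 ± 0.41 in control cells. It was well above background on all 8 arrays.

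The inner arm heavy chains differed among themselves. Dnah1 was at -3.86 and -3.95 in knockout cells on day 9, against -5.24 and -5.25 on day 7, a change of 1.34 ± 0.17. In control cells Dnah1 was at -2.99 and -3.21 on day 9, against -4.98 and -4.58 on day 7, a change of 1.68 ± 0.17. Dnah1 was called in both genotypes, whereas Dnah6 was called in knockout cells alone. Dnah6 was at -3.68 and -4.56 in knockout cells on day 9, against -5.92 and -6.18 on day 7, a change of 1.93 ± 0.36. In control cells Dnah6 was at -5.06 and -4.27 on day 9, against -4.72 and -4.92 on day 7, and the days overlapped (0.15 ± 0.36). Dnah2 had changes of 2.20 ± 0.57 in knockout cells and 1.55 ± 0.57 in control cells and was not called, and its knockout arrays on day 9 lay apart, at -0.82 and -2.34. Dnah10 was the one heavy chain with negative changes in both genotypes, -0.51 ± 0.29 in knockout cells and -1.01 ± 0.29 in control cells, and was not called.

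Among intermediate chains, Wdr78, of an inner arm, was called in both genotypes, with changes of 1.23 ± 0.20 in knockout cells and 0.88 ± 0.20 in control cells. The outer arm intermediate chains Dnaic1 and Dnaic2 were not called. Dnaic1 changed by -0.12 ± 0.19 in knockout cells and -0.23 ± 0.19 in control cells. Dnaic2 had the lowest change of all members in control cells, -1.27 ± 0.47, against -0.37 ± 0.47 in knockout cells. Dnaic2 was at -3.40 and -2.13 in control cells on day 9, against -1.79 and -1.20 on day 7, so that the days did not overlap there. Wdr63, an inner arm intermediate chain, again gave probes that disagreed. Its brightest probe, on which it was counted, changed by -0.39 ± 0.22 in knockout cells and -0.29 ± 0.22 in control cells. Its other kept probe was at -1.71 and -2.50 in knockout cells on day 9, against -6.41 and -5.39 on day 7, and at -4.51 and -3.23 in control cells on day 9, against -5.79 and -6.98 on day 7. That probe, above background on 5 of 8 arrays, had changes of 3.79 and 2.52, so that counting Wdr63 as flat rests on the choice of probe.

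Of the 3 measured factors of dynein assembly, 2 were called higher in each genotype, but Zmynd10 and Lrrc6 had passed the filter through day 9 alone. Zmynd10, a cytoplasmic assembly factor, was at -2.14 and -2.98 in knockout cells on day 9, against -5.26 and -5.75 on day 7. In control cells Zmynd10 was at -3.42 and -2.28 on day 9, against -5.44 and -5.54 on day 7. The days did not overlap, and its changes were 2.95 ± 0.43 and 2.64 ± 0.43. Dnaaf3, another assembly factor, changed by 1.82 ± 0.22 in knockout cells and 1.24 ± 0.22 in control cells. Lrrc6, which acts with Zmynd10, had changes of 1.05 ± 0.35 and 0.53 ± 0.35 and was not called.

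Of 6 radial spoke and central pair genes measured, 3 were called higher in knockout cells and 2 in control cells. Of these genes, Dnajb13 had passed the filter through day 9 alone. Dnajb13, a co-chaperone of the radial spoke, was at -2.49 and -3.63 in knockout cells on day 9, against -8.38 and -5.93 on day 7. Control cells had Dnajb13 at -4.31 and -3.18 on day 9, against -7.39 and -6.89 on day 7. It was not well above background on any of the 4 day 7 arrays. Its day 9 level is therefore given as at least 10.2-fold higher in knockout cells and at least 6.39-fold higher in control cells. Such a bound sets the day 9 mean against a limit on each day 7 array. The limit is the lowest signal that counted as well above background, or the gene's own signal where that was higher. Probes can miss the mark above that lowest signal, so the bound holds under this definition alone. Dnajb13 was called in knockout cells alone, with fitted changes of 4.09 ± 0.83 in knockout cells and 3.39 ± 0.83 in control cells.

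Rsph1, of the spoke head, was at 0.76 and 0.04 in knockout cells on day 9, against -1.67 and -1.42 on day 7, and was called in both genotypes (1.94 ± 0.29 in knockout cells and 1.58 ± 0.29 in control cells). The other spoke head genes, Rsph4a and Rsph9, had changes of 1.94 ± 0.54 and 1.16 ± 0.32 in knockout cells and of 1.48 ± 0.54 and 0.94 ± 0.32 in control cells, and were not called. Spef2, a central pair protein, was at -2.27 and -2.89 in knockout cells on day 9, against -3.89 and -3.91 on day 7, and at -1.51 and -1.25 in control cells on day 9, against -3.23 and -3.49 on day 7. It was called in both genotypes, with 1.32 ± 0.23 in knockout cells and 1.98 ± 0.23 in control cells. Hydin, a large protein of a central pair projection, overlapped between days in control cells and was not called in either genotype (0.24 ± 0.38 in knockout cells and -0.20 ± 0.38 in control cells).

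Both measured genes of the ruler and the nexin-dynein regulatory complex were called in both genotypes, but Ccdc39 had passed the filter through day 9 alone. Drc1, a subunit of that complex, was at 1.51 and 0.42 in knockout cells on day 9, against -2.21 and -2.06 on day 7. In control cells Drc1 was at -0.18 and 0.97 on day 9, against -1.80 and -2.34 on day 7. All day 9 arrays were above all day 7 arrays, with changes of 3.10 ± 0.48 and 2.47 ± 0.48. Ccdc39, which sets the spacing of arms and spokes along the doublet, was at -2.88 and -3.17 in knockout cells on day 9, against -5.02 and -5.14 on day 7, and at -3.71 and -2.96 in control cells on day 9, against -5.16 and -4.98 on day 7. It changed by 2.05 ± 0.26 in knockout cells and 1.73 ± 0.26 in control cells.

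Of 12 measured doublet and other cilium genes, 5 were called higher in knockout cells and 4 in control cells. Of these genes, Cfap44 and Vwa3a had passed the filter through day 9 alone. Cfap52, a protein inside the doublet, was at 1.14 and 0.34 in knockout cells on day 9, against -2.86 and -3.19 on day 7. In control cells it was at -0.67 and 0.20 on day 9, against -3.35 and -3.65 on day 7. Cfap52 was well above background on all 8 arrays, its days did not overlap, and it changed by 3.76 ± 0.37 in knockout cells and 3.26 ± 0.37 in control cells.

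Enkur, also a protein inside the doublet, was at 0.50 and -0.18 in knockout cells on day 9, against -2.76 and -2.94 on day 7. In control cells Enkur was at -0.42 and -0.17 on day 9, against -2.54 and -2.60 on day 7. The days did not overlap, and the changes were 3.01 ± 0.24 in knockout cells and 2.27 ± 0.24 in control cells. Ccdc113, an axonemal accessory protein, was at -1.08 and -2.10 in knockout cells on day 9, against -4.10 and -4.23 on day 7, and at -2.61 and -1.97 in control cells on day 9, against -3.84 and -4.75 on day 7. It changed by 2.58 ± 0.43 in knockout cells and 2.00 ± 0.43 in control cells and was called in both.

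Vwa3a was at -2.20 and -3.22 in knockout cells on day 9, against -6.42 and -7.18 on day 7. In control cells Vwa3a was at -3.88 and -2.91 on day 9, against -4.81 and -5.38 on day 7. It was not well above background on either knockout day 7 array, which makes its knockout day 9 level at least 12.2-fold higher. Its fitted changes were 4.09 ± 0.48 in knockout cells, which was called, and 1.70 ± 0.48 in control cells, which was not.

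Cfap44, a tether of an inner arm, was at -3.76 and -4.60 in knockout cells on day 9, against -6.87 and -5.40 on day 7. In control cells Cfap44 was at -4.38 and -4.23 on day 9, against -6.89 and -6.98 on day 7. It was not well above background on any of the 4 day 7 arrays, and its day 9 level was at least 3.64-fold higher in control cells. Its knockout day 7 signals lay above the lowest signal that counted as well above background. The change of 3.88-fold in knockout cells is thus the fitted ratio and no bound. It was called in control cells alone. The tektins, filament proteins of the doublet wall, were uneven. Tekt1 was at 2.20 and 1.20 in knockout cells on day 9, against -1.03 and -0.45 on day 7, and at -0.40 and 1.00 in control cells on day 9, against -1.87 and -1.27 on day 7. Its days did not overlap in either genotype, with changes of 2.44 ± 0.54 in knockout cells, which was called, and 1.87 ± 0.54 in control cells, which was not. Tekt4 had 1.65 ± 0.51 and 1.31 ± 0.51, and Tekt2 had 0.34 ± 0.17 and -0.22 ± 0.17, none of them called. Ak8, an adenylate kinase, Mlf1, Tppp3, which binds tubulin, and Pifo, which acts in primary cilium disassembly, had changes between 0.04 and 0.73 in knockout cells and between 0.10 and 0.62 in control cells, with 0 calls.

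**Figure D2:**
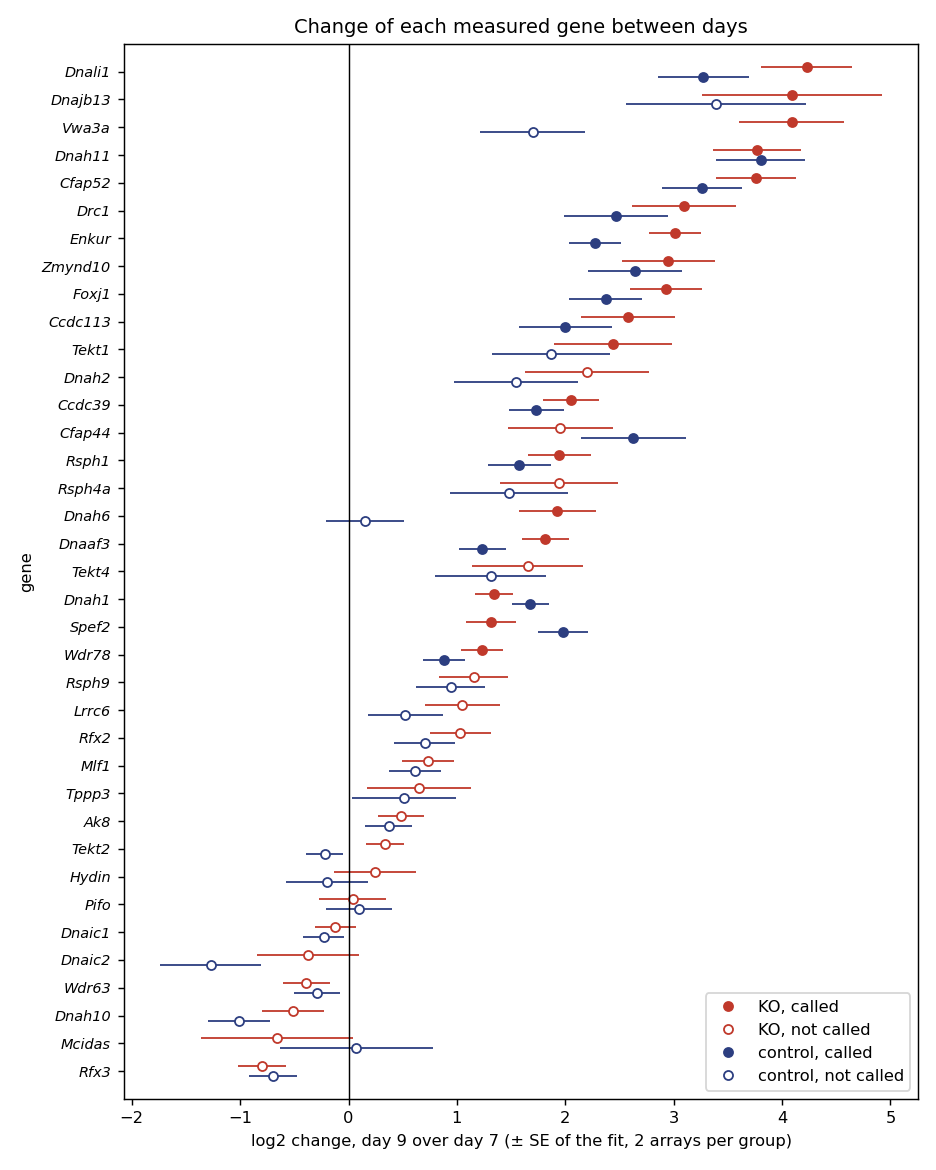
Each row is 1 measured gene, with its log2 change of day 9 over day 7 (± SE of the fit) in knockout cells (red, upper) and in control cells (blue, lower). Filled points were called. Changes run from -0.80 (Rfx3) to 4.23 (Dnali1) in knockout cells and from -1.27 (Dnaic2) to 3.80 (Dnah11) in control cells.

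Genotype was compared within each day. On day 7, 0 of the 37 members were called between knockout and control cells by limma, where 0.203% of all genes tested were called, and 4 had an unadjusted p under 0.05. The median difference of knockout minus control was -0.06, where that of all genes was -0.05. It was 0.10 with quantile normalization and 0.07 with equal array medians, so it has no settled direction. The lowest fitted differences were those of Vwa3a and Dnah6, both dim on day 7. Vwa3a was at -6.42 and -7.18 in knockout cells, against -4.81 and -5.38 in control cells. With 1 of 2 control arrays above background and 0 of 2 knockout arrays, no bound is given for Vwa3a on day 7. Its fitted difference, -1.71 ± 0.48, had an adjusted p of 0.15 in limma. Dnah6 was at -5.92 and -6.18 in knockout cells, against -4.72 and -4.92 in control cells (-1.23 ± 0.36, limma adjusted p = 0.156), with 1 of 2 arrays above background in each. For both genes the genotypes did not overlap on day 7. The other kept probe of Rsph4a, which was not the one fitted, differed by -1.83 on day 7, against -0.05 for its brightest probe. Of the 37 members, 7 lay wholly higher in knockout cells and 10 wholly lower, against 20.6% and 27.8% of all genes. At the upper end stood Dnaic2 at 0.83 ± 0.47 and Tekt1 at 0.83 ± 0.54, with limma adjusted p of 0.391 and 0.46. Foxj1 differed by 0.16 ± 0.33, Mcidas by -0.35 ± 0.70, Rfx2 by -0.10 ± 0.28 and Rfx3 by -0.36 ± 0.22, with limma adjusted p between 0.426 and 0.892.

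On day 9, 1 of the 37 members was called between genotypes, where 5.45% of all genes tested were called. This gene was Spef2, at -2.27 and -2.89 in knockout cells, against -1.51 and -1.25 in control cells (-1.20 ± 0.23, limma adjusted p = 0.0391). Spef2 was lower in knockout cells on each day, without overlap. The call was lost with quantile normalization, with equal array medians, with normexp background correction, with the authors' value table, with no filter on dim probes, with the 4 day 9 arrays alone, and when any 1 of the 8 arrays was left out. With equal array medians Dnaic2, on chromosome 11, was the 1 member called in its place, higher in knockout cells. Tekt1 was at 2.20 and 1.20 in knockout cells, against -0.40 and 1.00 in control cells (1.40 ± 0.54, limma adjusted p = 0.171). Dnaic2 was at -0.79 and -1.29 in knockout cells, against -3.40 and -2.13 in control cells (1.73 ± 0.47, limma adjusted p = 0.0848), again without overlap. Foxj1 differed by 0.72 ± 0.33 (limma adjusted p = 0.234), and its genotypes did not overlap, though its arrays numbered 2 differed by only 0.08. On day 9, 7 members lay wholly higher in knockout cells and 6 wholly lower, against 27.2% and 32.5% of all genes. Mcidas stood at -1.09 ± 0.70, Rfx2 at 0.23 ± 0.28 and Rfx3 at -0.47 ± 0.22, with limma adjusted p between 0.24 and 0.641.

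The members' differences on day 9 depended on which arrays were set side by side. Over all arrays the median of knockout minus control was 0.39, and 27 of 37 members had a positive difference. Between the arrays numbered 1, 30 of 37 were positive, with a median of 0.93. Between the arrays numbered 2, 29 of 37 were negative, with a median of -0.21. Within knockout cells on day 9 the array of replicate 1 was above that of replicate 2 for 33 of 37 members (median 0.59), and within control cells below it for 34 of 37 (median -0.64). The members thus varied together from array to array within each day 9 group. The replicate numbers share brightness and a slide row, and no label says that they pair the cultures.

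Markers of neurons and progenitors also differed between genotypes on day 9. Over all 24644 genes tested, 374 were called higher in knockout cells and 970 lower on that day. Pan-neuronal genes had a median of knockout minus control of -0.91, with 0 of 11 positive and 3 called lower, among them Stmn2 (-1.20 ± 0.14, limma adjusted p = 0.0165). Over both days 9 of these 11 genes were called lower, where 2276 of 24644 genes tested were. Spinal progenitor genes had a median of 0.46, with 5 of 11 called higher, among them Olig2 (2.93 ± 0.37, limma adjusted p = 0.0199), and 1 called lower. Motor neuron genes had 2 called higher and 3 lower, with a median of -0.35. Other motile cilium genes had 40 of 48 positive, a median of 0.36 and 0 called by limma (11 had an unadjusted p under 0.05). The part of these marker changes in the members' genotype differences was not tested.

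**Figure D3:**
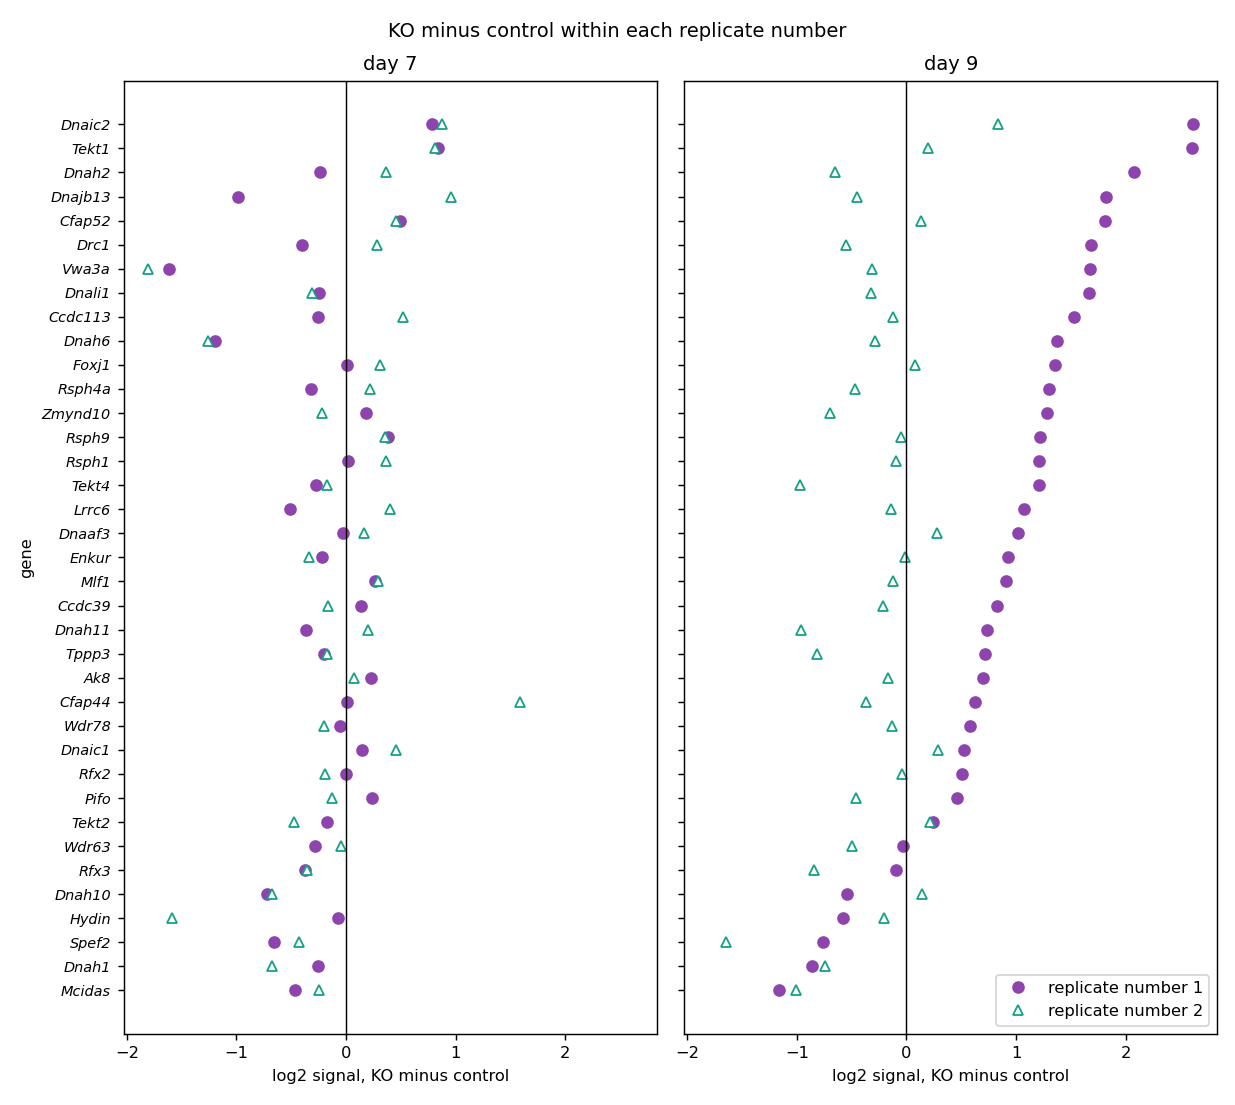
Each row is 1 measured gene, with knockout minus control (log2) between the arrays numbered 1 (filled circles) and between those numbered 2 (open triangles), on day 7 (left) and on day 9 (right). On day 9 the circles lie mostly above 0 (30 of 37) and the triangles mostly below 0 (29 of 37). Mcidas, Rfx3, Dnah1, Wdr63, Spef2 and Hydin are below 0 for both numbers on day 9. Wdr63 is shown by its brightest probe, and its other kept probe was above 0 for both numbers (1.76 between the means), so its direction rests on the choice of probe.

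The difference of the knockout effect between days was called for 0 of 37 members, where 0.00406% of all genes tested were called. Unadjusted, 2 members had a p under 0.05, and the median difference was 0.37, where that of all genes was 0.00. The fitted values of some members rest on day 7 arrays where they were not well above background, and are given with no rank. Vwa3a (2.39 ± 0.68) was above background on 0 of 2 knockout and 1 of 2 control arrays on day 7, and Dnah6 (1.77 ± 0.51) on 1 of 2 arrays of each genotype, both with a limma adjusted p of 0.776. Cfap44 was above background on 0 of 4 day 7 arrays, so that its knockout effect on that day, and the difference between days, have no value. Mcidas, above background on all 8 arrays, stood at -0.73 ± 0.99 (limma adjusted p = 0.938). For Foxj1 this difference was 0.56 ± 0.47, for Rfx2 0.33 ± 0.40 and for Rfx3 -0.11 ± 0.31, with limma adjusted p between 0.902 and 0.979. A call in 1 genotype alone, as for Vwa3a and Dnah6, is therefore not shown to differ from the other genotype.

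Averaged over both days, with 4 arrays against 4, 3 of 37 members were called between genotypes, where 14.7% of all genes tested were called. Dnaic2 was higher in knockout cells (1.28 ± 0.33, limma adjusted p = 0.049). Spef2 (-0.87 ± 0.16, limma adjusted p = 0.023) and Dnah1 (-0.63 ± 0.12, limma adjusted p = 0.0244) were lower. Each of these genes kept its sign in all 4 pairs of same-numbered arrays, which adds no support, since the calls rest on those same arrays. Leaving out single arrays left between 0 and 4 members called, and 0 were called without either knockout day 7 array, without knockout day 9 replicate 2 or without control day 9 replicate 1. Tekt1 stood at 1.12 ± 0.38, Foxj1 at 0.44 ± 0.24, Rfx2 at 0.07 ± 0.20, Rfx3 at -0.42 ± 0.16 and Mcidas at -0.72 ± 0.50, none of them called (limma adjusted p between 0.0972 and 0.839). The median over the members was 0.15, where that of all genes was -0.04.

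The members on chromosome 11 were set apart with earlier results of these arrays known. Foxj1, Dnah2, Dnaic2, Tekt1 and Cfap52 lie on it, and all 5 had a positive fitted knockout difference on each day under every scaling tried. Dnah2 was close to 0 on day 7 (0.06 ± 0.57). Between same-numbered arrays Dnah2 was negative for number 1 on day 7 (-0.24) and for number 2 on day 9 (-0.65). Foxj1, Dnaic2, Tekt1 and Cfap52 were positive in every such pair. The median of the 5 members was 0.47 on day 7, 0.97 on day 9 and 0.72 over both days, whereas that of the other 32 members was -0.09, 0.28 and 0.08. All 1252 tested chromosome 11 genes with a symbol had medians of 0.29, 0.38 and 0.34, and the 13796 on other chromosomes -0.02, 0.04 and 0.01. On day 9, 116 chromosome 11 genes were called higher in knockout cells and 13 lower, where 187 genes on other chromosomes were called higher and 576 lower. The part of chromosome position in the members' differences was not tested.

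**Figure D4:**
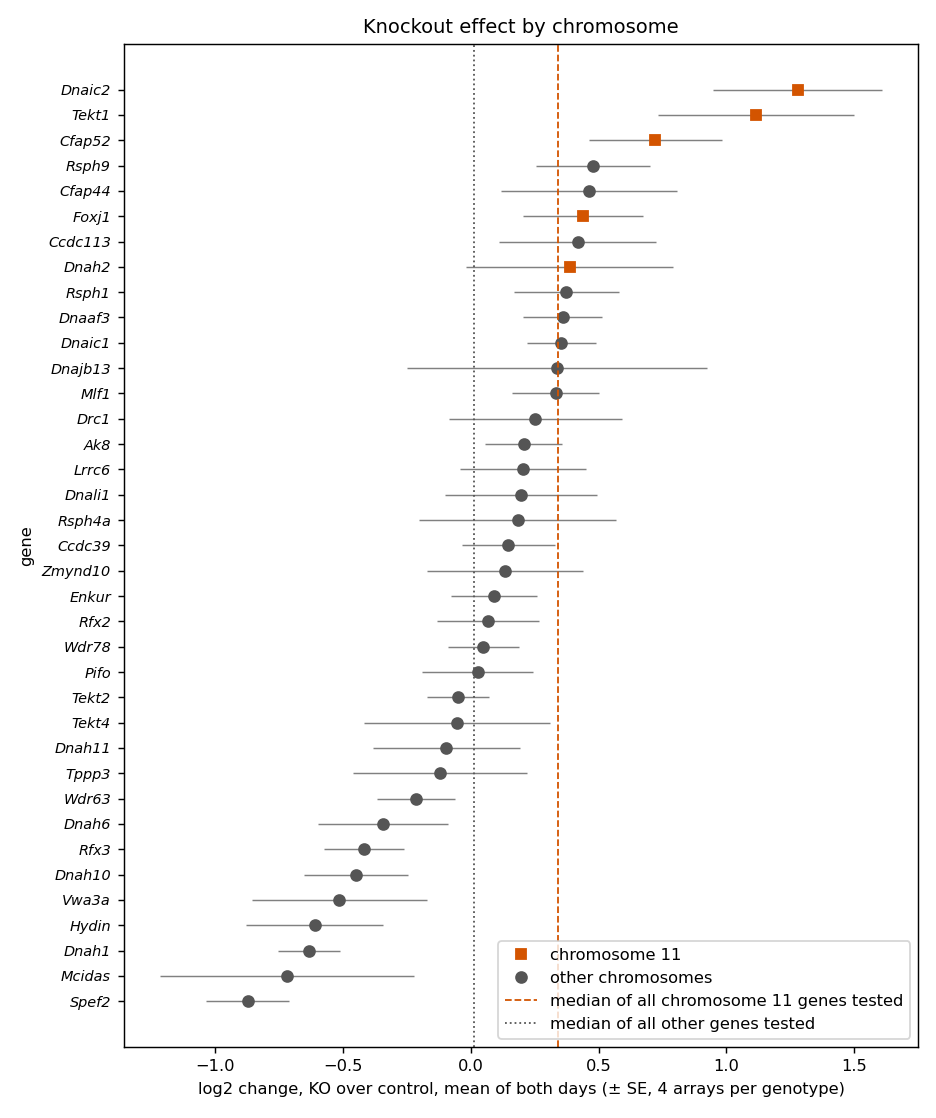
Each row is 1 measured gene, with its log2 difference of knockout over control averaged over both days (± SE of the fit, 4 arrays per genotype), as orange squares for chromosome 11 and grey circles for others. Lines mark the medians of all tested chromosome 11 genes (dashed, 0.34) and of all other genes (dotted, 0.01). Dnaic2 (1.28), Tekt1 (1.12) and Cfap52 (0.72), all on chromosome 11, are the 3 highest.

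Further lists, chosen like the members with earlier results known, place the members beside related programmes. Of 68 other motile cilium genes, 48 were measured, and 18 were called higher on day 9 in knockout cells and 12 in control cells, with 0 lower and medians of 0.71 and 0.76. Cfap126, which acts in axoneme formation, was at 3.38 and 2.23 in knockout cells on day 9, against -0.55 and -0.27 on day 7. In control cells Cfap126 was at 1.33 and 2.66 on day 9, against -1.15 and -0.95 on day 7, so that its day 9 arrays had the same order as those of the members. Its changes were 3.22 ± 0.51 and 3.04 ± 0.51.

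Primary cilium genes did not show changes of that size. Of 39 measured, 1 was called higher in each genotype, Ift57 (0.97 ± 0.18 in knockout cells and 0.83 ± 0.18 in control cells), a subunit of the transport complex that builds cilia. Their medians were 0.21 and 0.09. With equal array medians, 6 were called in knockout cells.

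Multiciliation and centriole genes had 0 calls higher (1 in knockout cells with equal array medians or with normexp background correction). Of 15 measured, Foxn4, a forkhead factor, was called lower in both genotypes, with -1.72 ± 0.38 in knockout cells and -2.55 ± 0.38 in control cells. Its knockout call was lost with quantile normalization, with equal array medians and with the authors' value table. Gmnc, which acts above Mcidas, was well above background on 0 arrays. Ccno (-0.17 ± 0.56 and 0.16 ± 0.56) and Deup1 (-0.32 ± 0.18 and -0.19 ± 0.18), which act in centriole amplification, were not called. The medians of this list were -0.17 and -0.19.

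Marker lists of cell types moved beside the members. Of 12 floor plate genes, 9 were called higher and 1 lower on day 9 in knockout cells, and 8 higher and 1 lower in control cells, with medians of 2.00 and 1.71. Foxa2, a floor plate regulator, was at 5.52 and 5.50 in knockout cells on day 9, against 4.15 and 4.02 on day 7, and at 5.50 and 5.68 in control cells on day 9, against 4.74 and 4.65 on day 7. Shh changed by 2.13 ± 0.13 in knockout cells and 1.63 ± 0.13 in control cells, and Nkx2-9 was the gene called lower (-2.56 and -3.47). The level of the list per array, taken as the median over its genes of values centred per gene, was 0.86 and 0.68 in knockout cells on day 9, against -1.18 and -1.01 on day 7. In control cells it was 0.72 and 1.09 on day 9, against -0.54 and -0.51 on day 7. For the members the same medians were 1.13 and 0.53 in knockout cells on day 9, against -0.93 and -0.58 on day 7, and 0.20 and 0.89 in control cells on day 9, against -0.69 and -0.51 on day 7. Both lists had replicate 1 above replicate 2 in knockout cells on day 9 and below it in control cells, and so had the lists of other motile cilium, primary cilium, choroid plexus and spermatid genes. Between genotypes the floor plate genes lay on the other side of 0 from most members on day 9. Their median of knockout minus control was -0.29 on day 9 (9 of 12 negative) and -0.58 on day 7 (11 of 12 negative), where the members had 0.39 and -0.06. On each day 0 floor plate genes were called by limma (4 on day 9 and 7 on day 7 had an unadjusted p under 0.05), and over both days Shh and Slit1 were called lower. With equal array medians the floor plate median on day 9 was -0.06, with 5 of 12 positive.

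Motor neuron genes, which mark the labelled cell type, were all 13 well above background on all 8 arrays. On day 9, 6 were called lower in each genotype, among them Isl2 (-2.50 ± 0.53 in knockout cells and -3.10 ± 0.53 in control cells) and Chat (-1.64 ± 0.24 and -1.40 ± 0.24), and Slit2 was called higher in knockout cells. The medians were -1.47 in knockout cells and -1.11 in control cells. Pan-neuronal genes, 11 measured, had 4 called lower in knockout cells and 2 in control cells, with 0 higher and medians of -0.69 and -0.44. Spinal progenitor genes, 11 measured, had 4 called lower in each genotype and 0 higher, with medians of -0.69 and -0.91. Over all 24644 genes tested, 1036 were called lower on day 9 than on day 7 in knockout cells and 805 in control cells.

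Other tissues with motile cilia or axonemes were covered by lists as well, but not every listed gene was measured. Those measured were 6 of 10 choroid plexus, 6 of 10 spermatid and 7 of 10 node genes. For ependymal and radial glia they were 9 of 12, and for secretory epithelium 6 of 8. Kl, Kcne2 and Cldn2 of choroid plexus, Tnp2, Spaca1 and Spata3 of spermatids, and Glis3 of ependyma were well above background on 0 arrays. Of 6 choroid plexus genes measured, 0 were called in either genotype by limma (2 and 1 had an unadjusted p under 0.05), with medians of -0.46 and -0.13. Of 6 spermatid genes, 1 was called lower in knockout cells, Akap4, and 0 in control cells, with medians of -0.38 and -0.20. Of 7 node genes, 3 were called higher in each genotype, Shh, Foxa2 and Gdf1, of which Shh and Foxa2 are also floor plate genes, while Noto and T were well above background on 0 arrays. Of 9 ependymal and radial glia genes, 2 were called higher in knockout cells, Sox2 and Nes, and 1 lower in control cells, Hes5, with medians of 0.32 and 0.08. Of 6 genes of airway and oviduct secretory epithelium, 0 were called in either genotype by limma (3 and 2 had an unadjusted p under 0.05), with medians of -0.40 and -0.23. The part of cell composition in the members' changes was not tested.

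**Figure D5:**
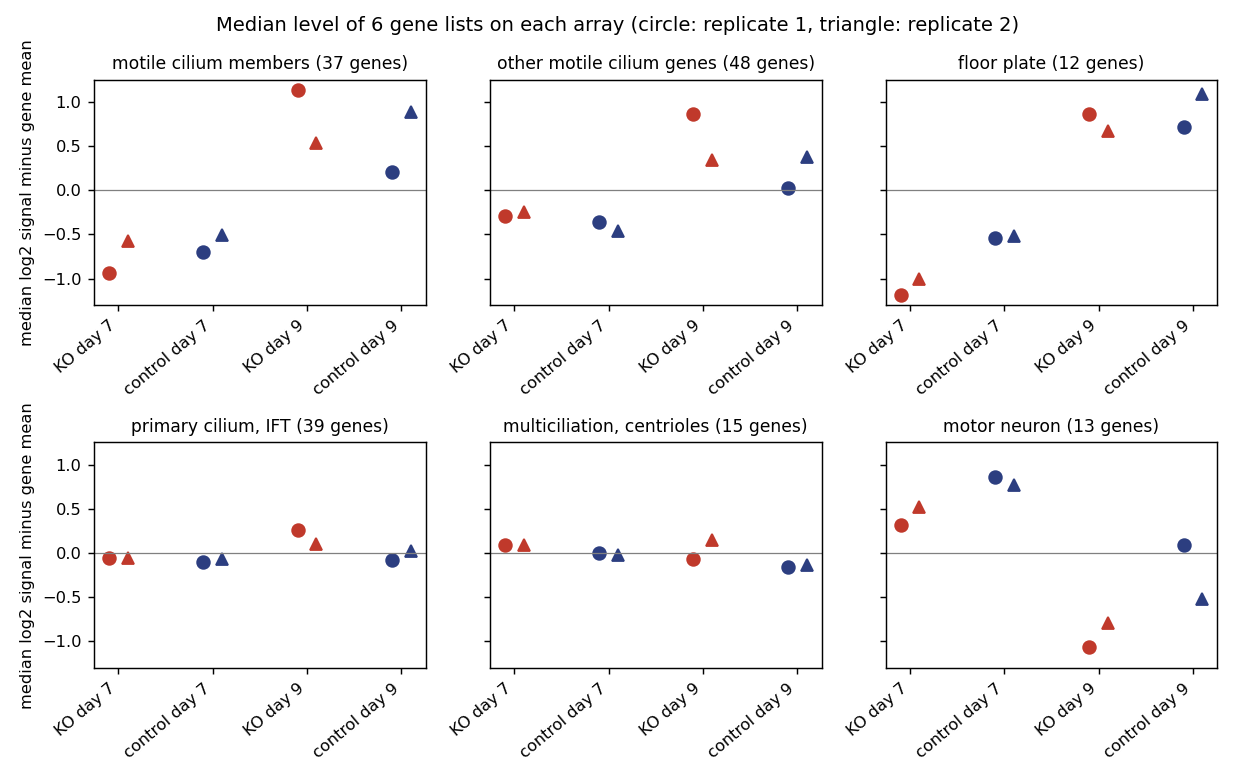
Each panel gives, for 1 gene list, the median over its genes of the log2 signal minus the gene's mean, on each array (circle for replicate 1, triangle for replicate 2, red for knockout, blue for control). Members, other motile cilium genes and floor plate genes are higher on day 9 than on day 7 in both genotypes, motor neuron genes are lower, and primary cilium and multiciliation genes stay between -0.16 and 0.26.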

How the data were processed

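RNA of 8 culture samples was hybridised with Cy3 to 1-colour Agilent mouse arrays, per the labels' protocols. The authors' deposited scanner files hold a processed signal, a spot intensity after background subtraction, extracted, per the submitters' processing notes, with Feature Extraction 10.5.1. A log2 value table by the authors served as an alternative, whose columns each had a median of 5.80. Its scale is log2, per the values; its baseline is unknown.

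Control and outlier spots were dropped, spots of a probe averaged, and each array's 75th percentile subtracted on the log2 scale. Probes were named through RefSeq accessions on GRCm38.p6 (26300 of 55681, 47.2%). The brightest kept probe stood for a gene. limma 3.58.1 in R 4.3.3 fitted 4 group means over 8 arrays with two-sided tests (4 residual and 2.53 prior degrees of freedom). A run on simulated data with independent noise checked the code alone and does not measure the error rates on these arrays. Members and lists were chosen with earlier results of these data known. Named genes were the 4 regulators, every called member (the 12 largest changes where more were called) and the 2 highest and 2 lowest changes per comparison. Other members, and the genes named from the other lists, were chosen after their values were seen. The planned normexp alternative used median instead of mean spot signals, which the files do not list. Samples were grouped by title; the number of arrays limits precision. Alternatives were the normalization, the background correction, the authors' values, the filter, the probe rule, the arrays fitted, a replicate block and leaving out each array.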

Additional observations from a re-analysis of the deposited data

Results flagged for a closer look

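Tekt2, a tektin, had knockout minus control differences of opposite sign on the 2 days in every pair of same-numbered arrays. They were 0.25 and 0.21 on day 9, against -0.18 and -0.48 on day 7. The difference between days was 0.56 ± 0.24 on the log2 scale (limma adjusted p = 0.837), so the interaction was not called.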

How the results depend on the processing

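In knockout cells, the 18 members called between days became 10 with normexp background correction, 9 with no filter on dim probes and 11 with the filter set at all 8 arrays (10 such members in the original fit). The median change of 1.65 became 0.95, 1.22 and 1.09, and 1.02 within replicate number 2. In control cells, the 15 called members became 5, 0 and 9 under the same settings (9 such members in the original fit) and 5 with the 4 control arrays alone. The median of 1.31 became 0.76, 0.78 and 0.79, and 0.87 within replicate number 1. Leaving out 1 array in turn gave 6 to 18 calls and medians of 1.30 to 1.86 in knockout cells, and 0 to 13 calls and medians of 0.91 to 1.57 in control cells. On day 9 between genotypes, the 1 called member became 0 with quantile normalization, normexp, the authors' value table, no filter or the day 9 arrays alone, 2 with the mean of a gene's probes, 1 with equal medians (Dnaic2, higher, in place of Spef2, lower), and 0 to 0 without 1 array (median 0.029 to 0.68, lowest without knockout day 9 replicate 1). Over both days, the 3 called members became 0 with normexp or no filter, and 0 to 4 without 1 array. With the replicate block the members called were 18 and 13 between days in knockout and control cells, 1 on day 9 and 3 over both days. Deviations of same-numbered arrays correlated at 0.25 to 0.46 between pairs of groups without knockout day 9. In pairs with knockout day 9 they correlated at -0.25 to 0.04. The numbers were therefore not taken to pair the samples of all groups. The crossed pairing on day 9, chosen after seeing the data, gave 5 members and 2611 genes. Over all genes, normexp and no filter gave 895 and 477 calls between days in knockout cells (2057 in the original fit), 698 and 74 in control cells (1815, and 185 with their own arrays), 307 and 1 on day 9 (1344, 2046 with equal medians, 52 with the day 9 arrays), 21 and 0 on day 7 (50, 183 with the filter at all 8 arrays, 102 with the replicate block, 0 with the day 7 arrays) and 1671 and 221 over both days (3627). With equal medians the share of higher calls was 69.6%, against 27.8%, on day 9, 58.5%, against 46.0%, on day 7, and 73.4%, against 37.2%, over both days. Between days it was 68.2%, against 49.6%, in knockout cells and 67.6%, against 55.6%, in control cells, and the median of all genes on day 9 was 0.21 in place of -0.02. No direction reversed among the named members' called changes. The causes were not tested. With 2 arrays per group, dim genes have only bounds.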
